A study of Mus musculus with 2 samples.

Results

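The genes described are 10 members of the bone morphogenetic protein (BMP) pathway, taken by name from the 27998 genes counted in the ocular area of mouse embryos: the ligands *Bmp4* and *Bmp7*, the response genes *Id1*, *Id2*, *Id3*, *Id4*, *Msx1* and *Msx2*, and the inhibitors *Smad6* and *Bambi*. Both optic areas of 1 C57BL/6J embryo at the 26-somite stage, given as E9.25, were dissociated with trypsin for each genotype, wild type (WT) and *Mab21l1*-null (KO), and 1 library per embryo was made with the 10x Chromium 3′ system, which tags each captured transcript with a cell barcode and a unique molecular identifier (UMI). The part of the gene that the null allele removes is not given in the sources used here. *Mab21l1* encodes a nucleotidyltransferase-fold protein needed for lens formation. Its RNA was lower in lens placode-like cells of the library labelled KO, at 72.4 against 124 CPM (counts per 1000000 UMIs), but over all kept cells it was higher there, at 32.5 against 20.3 CPM. A 3′ tag may lie outside the removed part, so this does not check the labels, and every direction between genotypes rests on them. Some lens markers in LP-like cells were lower under the KO label. These were *Pitx3* (1 against 47 UMIs), *Cngb3* (3 against 39 UMIs) and *Maf* (95.5 against 236 CPM). *Phlda1* was higher, at 640 against 554 CPM, and *Foxe3* had 0 UMIs in both libraries. The study took its list of lower lens genes, which holds *Pitx3*, *Cngb3* and *Maf*, from the same libraries. That list thus gives no independent check of the labels. The study also measured *Cngb3* by qPCR in whole-eye samples of other stages, which were not used here. WT and KO stand throughout for the libraries so labelled. Each genotype is 1 embryo, so differences between them could be set only against counting error, not against the spread between embryos, and no p-value is given. Brackets give exact 95% intervals, which cover counting error only.

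BMP ligands are secreted and bind pairs of type I and type II serine/threonine kinase receptors, which phosphorylate SMAD1, SMAD5 and SMAD9. With SMAD4 these enter the nucleus and induce the *Id* genes, which encode inhibitors of bHLH transcription factors, and the homeobox genes *Msx1* and *Msx2*. The pathway also induces its own brakes, among them *Smad6*, an inhibitory SMAD, and *Bambi*, a pseudoreceptor without a kinase domain. In the early eye, *Bmp4* from the optic vesicle and *Bmp7* from the surface ectoderm are known to be needed for the lens placode to form, and *Bmp4* also patterns the dorsal retina, where *Tbx5* is a known target.

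On GRCm38 the members other than *Bambi* lie, by GENCODE annotation, on chromosomes 2, 4, 5, 9, 12, 13 and 14. *Bmp4* spans 46383520 to 46390669 of chromosome 14 on the minus strand and overlaps *Gm15217* and *Gm15222*, *Id4* spans 48261228 to 48266026 of chromosome 13 and overlaps *A330033J07Rik* and *Gm49291*, and the others overlap no annotated gene. Promoter entries from RefSeq were matched for 7 of the 10 members. The 250 bases before the start site are shown for a ligand, a homeobox response gene and an inhibitor, members of each role whose start sites in RefSeq and GENCODE lie within 3 bases of each other. The capitals mark GTCT, the SMAD-binding letters, on either strand, and for *Smad6* the joint motif that holds it.
Bmp4, chr14:46390670-46390919 (minus strand, GRCm38.p6): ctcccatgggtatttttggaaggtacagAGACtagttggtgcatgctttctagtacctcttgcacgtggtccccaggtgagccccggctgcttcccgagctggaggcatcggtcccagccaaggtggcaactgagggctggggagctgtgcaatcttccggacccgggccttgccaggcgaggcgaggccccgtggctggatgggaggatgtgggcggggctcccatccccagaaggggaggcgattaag
Msx1, chr5:37824586-37824835 (minus strand, GRCm38.p6): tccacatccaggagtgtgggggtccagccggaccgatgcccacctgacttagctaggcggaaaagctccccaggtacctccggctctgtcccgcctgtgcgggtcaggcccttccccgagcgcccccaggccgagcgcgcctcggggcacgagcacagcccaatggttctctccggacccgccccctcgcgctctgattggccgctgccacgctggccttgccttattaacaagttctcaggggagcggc
Smad6, chr9:64022060-64022309 (minus strand, GRCm38.p6): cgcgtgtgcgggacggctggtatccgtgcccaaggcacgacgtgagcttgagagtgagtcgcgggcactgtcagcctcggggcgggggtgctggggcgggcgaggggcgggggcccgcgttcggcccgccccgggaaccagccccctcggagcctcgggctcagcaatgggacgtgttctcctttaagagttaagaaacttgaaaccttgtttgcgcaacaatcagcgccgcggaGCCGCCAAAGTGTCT
In these windows GTCT stood in 5 of the 7 members, and in 82.9% of 32851 mouse promoters of the same length. The letters GGCGCC, which SMAD1 and SMAD5 can bind, stood in *Id2* and *Id4* and in 9.59% of promoters. The joint motif GNCGNCNNNNNGTCT, searched on both strands and overlapping GTCT, stood in *Smad6* alone of the 7, starting 15 bases before the start site, and in 0.511% of promoters. *Msx1* held none of these motifs in this window. A match is a description of letters and not a bound site.

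The library labelled WT kept 1680 cells with 41880035 UMIs (median 21037 per cell) and the library labelled KO kept 2404 cells with 52430844 UMIs (median 18135). Cells were put into classes by marker genes that include no BMP member: ectoderm-like cells (55 and 40 cells in the libraries labelled WT and KO), which hold lens placode (LP)-like (35 and 22) and other surface ectoderm (SE)-like cells (20 and 18), neural retina-like (303 and 475), retinal pigment epithelium (RPE)-like (90 and 89), *Pax2*-high optic vesicle (149 and 231), forebrain-like (140 and 191), *Alx*-high mesenchyme-like (295 and 476), *Foxc*-high mesenchyme-like (207 and 289), neural crest-like (29 and 25), endothelium-like (63 and 92) and erythroid-like cells (37 and 52). All 5 gate markers, on which the cells were chosen, and 4 of 4 further markers stood at least 2-fold above the other cells in ectoderm-like cells. In LP-like cells 5 of 6 further markers did so, and *Foxe3* was at 0 UMIs. The study's list of lens placode genes, drawn from the same libraries, holds these 5. They are thus no independent check of the LP-like class. The support was thinner for forebrain-like cells, with 4 of 5 gate markers (*Emx2* at 2.63 against 10.6 CPM in other cells) and 2 of 4 further markers (*Barhl2* at 0 UMIs), and for *Alx*-high cells, with 3 of 3 gate markers and 1 of 2 further markers. The LP gate used *Pax6*, *Six3* and *Sox2*, whose levels in ectoderm-like cells were themselves lower in the library labelled KO (192 against 264 CPM for *Pax6*). 15 barcodes occurred in both libraries. Globin RNA outside erythroid cells stood at 401 against 176 CPM in ectoderm-like, 500 against 225 CPM in *Alx*-high and 818 against 248 CPM in endothelium-like cells (KO before WT), and dissociation-induced genes at 205 against 310 CPM in ectoderm-like and 338 against 421 CPM in *Alx*-high cells. The part of these in the results below was not tested.

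Both ligands were read in the optic vesicle and the ectoderm, in different proportions. For *Bmp4* the library labelled WT gave 50.3 CPM [46.0, 54.9] in neural retina-like, 48.5 CPM in RPE-like, 34.6 CPM [22.4, 51.0] in LP-like and 28.7 CPM in those that were SE-like, and the library labelled KO gave 43.0, 38.2, 66.6 [42.2, 99.9] and 45.6 CPM. The intervals of neighbours in this order overlapped, so the order among these 4 classes is not set, and the *Pax2*-high optic vesicle cells stood below all 4, at 11.5 and 11.7 CPM, with an interval that reached the SE-like interval of the library labelled WT. *Alx*-high and *Foxc*-high mesenchyme-like cells held 22.1 and 22.4 CPM of *Bmp4* in the library labelled WT and 12.2 and 27.1 CPM in the other. Forebrain-like cells stood low at 1.25 and 6.73 CPM, and neural crest-like cells held 1 UMI in each library.

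*Bmp7* had its highest levels in SE-like cells, at 80.4 CPM (WT) and 80.7 CPM (KO), and in RPE-like cells, at 68.5 and 74.6 CPM, with overlapping intervals. LP-like cells (42.9 and 55.0 CPM), neural retina-like cells (39.6 and 34.2 CPM), *Pax2*-high cells (36.0 and 36.6 CPM) neural crest-like cells (35.3 and 21.9 CPM) and forebrain-like cells (31.2 and 29.1 CPM) came next. The mesenchyme-like classes held 15.9 to 23.0 CPM and endothelium-like cells 1.08 and 1.72 CPM. The forebrain-like cells, low in *Bmp4*, thus held *Bmp7*.

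**Figure D1:**
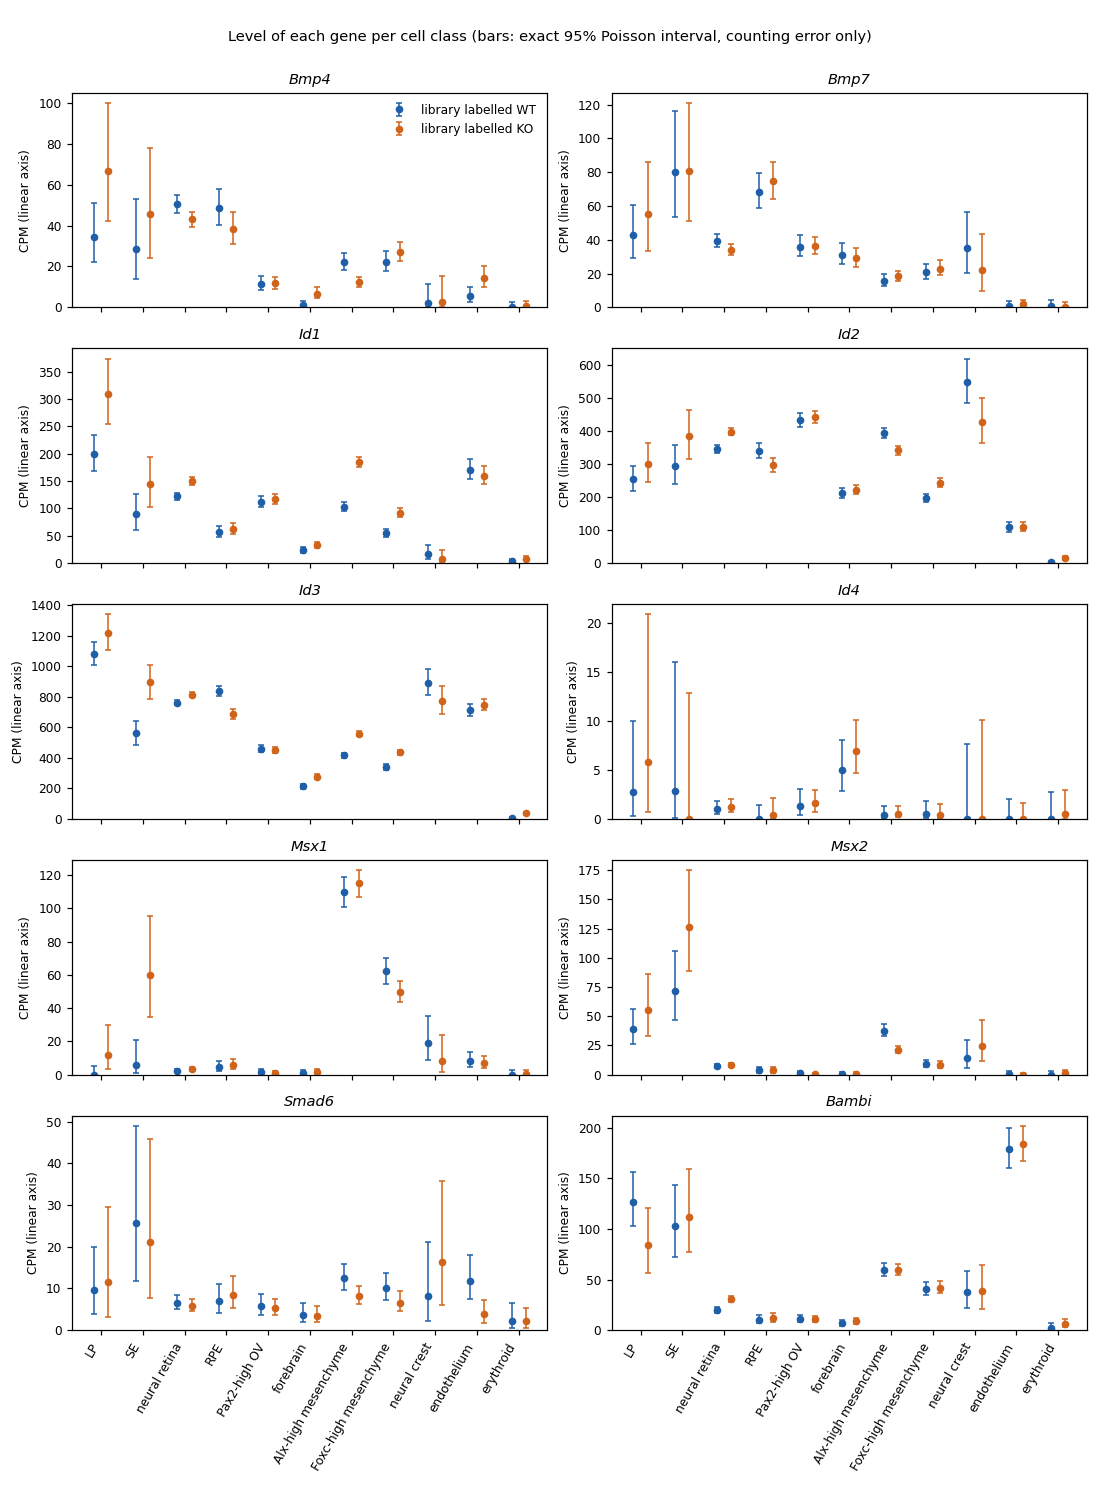
Level of each member (CPM, linear axis, with its own scale in each panel) in each marker-gated class, for the libraries labelled WT (blue) and KO (orange), with exact 95% Poisson intervals that cover counting error only. *Id3* and *Id2* were read in every class, lowest in the erythroid cells, while *Msx1* was highest in *Alx*-high cells and *Bambi* in endothelium-like cells.

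The *Id* genes differed in where they were highest. *Id1* was highest in LP-like cells, at 199 and 310 CPM in the libraries labelled WT and KO, followed in the former by endothelium-like (171 CPM, with an overlapping interval), neural retina-like (122 CPM) and *Pax2*-high cells (112 CPM), and lowest outside the blood in neural crest-like cells, at 16.6 and 8.22 CPM. *Id3* was also highest in LP-like cells, at 1081 and 1219 CPM, but stood at 894 and 773 CPM in neural crest-like cells, which held little *Id1* and 1 *Bmp4* UMI per library. *Id2* was highest in neural crest-like cells of the library labelled WT, at 550 CPM against 428 CPM in the other, and in *Pax2*-high cells, at 434 and 442 CPM, and its LP-like level of 254 and 301 CPM was below both. Endothelium-like cells held 109 and 111 CPM of *Id2*, the lowest outside the erythroid cells. *Id4* was near the floor, with 54 and 80 UMIs over all kept cells, of which 16 and 28 lay in forebrain-like cells, and none were counted in endothelium-like or neural crest-like cells.

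With every cell thinned to 6000 UMIs other than globin, *Id3* was detected in 97.1% [85.1, 99.9] and 100% [84.6, 100] of LP-like cells (WT before KO; 97.1% and 100% unthinned), against 5.41% and 21.2% of erythroid-like cells (16.2% and 51.9% unthinned), which serve as the measure of free RNA. *Bmp4* was detected in 14.3% and 40.9% of LP-like cells and in no thinned erythroid-like cell.

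Of the homeobox genes, *Msx1* was highest in *Alx*-high mesenchyme-like cells, at 110 and 115 CPM, and stood at 62.2 and 49.6 CPM in *Foxc*-high cells. Within the *Alx*-high class it was counted in 115 of 295 and 200 of 476 cells, with at most 62 and 28 UMIs in a single cell. *Msx2* was highest in SE-like cells, at 71.7 and 126 CPM, followed by LP-like cells at 38.7 and 55.0 CPM, and *Alx*-high cells held 37.5 and 21.3 CPM and neural crest-like cells 14.5 and 24.7 CPM, and it was near the floor in *Pax2*-high (1.31 and 0.523 CPM) and forebrain-like cells (0.623 and 0.747 CPM).

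The inhibitors were placed apart. *Bambi* was highest in endothelium-like cells, at 179 and 184 CPM, and high in ectoderm, at 127 and 83.9 CPM in LP-like and 103 and 112 CPM in SE-like cells, against 20.2 and 30.9 CPM in neural retina-like cells. *Smad6* was low everywhere, with 321 and 319 UMIs over all kept cells, and its highest level was 25.8 and 21.1 CPM in SE-like cells, from 9 and 6 UMIs. Across the 11 classes that do not overlap, both libraries were compared by the Pearson r of log2(CPM + 10). It was 0.96 to 0.99 for *Bmp7*, *Id1*, *Id2*, *Id3*, *Msx2* and *Bambi*, 0.90 for *Bmp4*, 0.80 for *Id4* and *Msx1* and 0.74 for *Smad6*. The Spearman rho was 0.57 for *Id4*, 0.64 for *Smad6*, 0.70 for *Msx1* and 0.85 to 0.98 for the others. These are descriptions over classes that share a library and its depth.

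Within the surface ectoderm, LP-like cells held more *Id1* and *Id3* and less *Msx2* than SE-like cells. The LP over SE ratio of CPM for WT was 2.24 [1.51, 3.42] for *Id1* and 1.93 [1.65, 2.27] for *Id3*, and for KO it was 2.15 [1.49, 3.16] and 1.36 [1.16, 1.60]. *Msx2* went the other way at 0.540 [0.303, 0.965] and 0.435 [0.236, 0.779]. *Bmp7* was also lower in LP-like cells, at 0.533 [0.310, 0.923] and 0.681 [0.351, 1.31], of which the second interval holds 1. For *Bmp4* the ratios of 1.20 [0.559, 2.81] and 1.46 [0.709, 3.14] did not separate the classes, nor did those of *Id2*, at 0.861 [0.673, 1.11] and 0.780 [0.591, 1.03]. Among members with at least 20 UMIs, 4 of 7 passed 1.5-fold in either direction in the library labelled WT, against 30.1% of all genes, and 3 of 8 in the library labelled KO, against 24.3%. The third in the latter was *Msx1*, at 0.194, and 15 of its 17 SE-like UMIs came from 1 cell. Mitosis genes, which also differ between these classes, stood at 950 CPM in LP-like and 1687 CPM in SE-like cells for WT and at 2238 and 1355 CPM for KO.

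**Figure D2:**
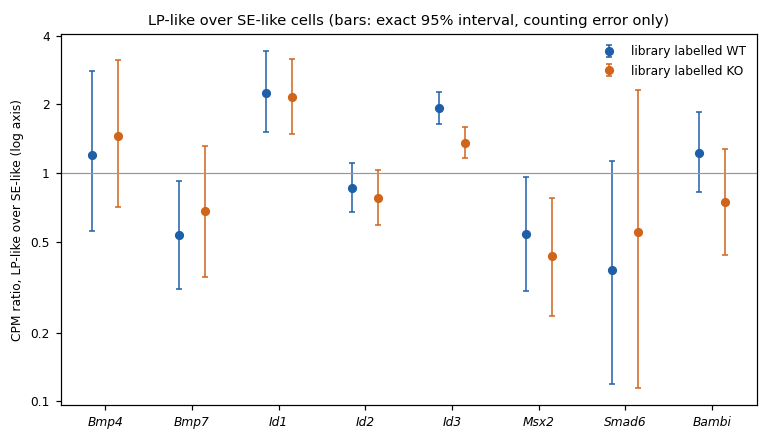
Ratio of CPM in LP-like over SE-like cells for the members other than *Id4* and *Msx1* (log axis), for the libraries labelled WT (blue) and KO (orange), with exact 95% intervals for counting error and a line at 1. *Id1* and *Id3* lie above 1 and *Msx2* below 1 in both libraries.

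**Figure D3:**
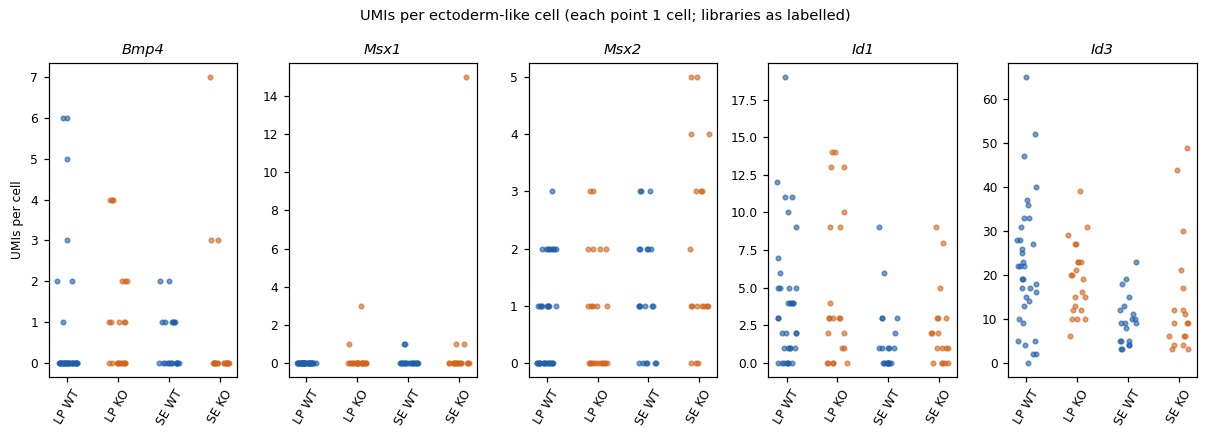
UMIs per cell of *Bmp4*, *Msx1*, *Msx2*, *Id1* and *Id3* in each LP-like and SE-like cell, 1 point per cell with sideways scatter, by library label (WT blue, KO orange) and not scaled to the depth of the cell. A single SE-like cell labelled KO holds 15 *Msx1* and 7 *Bmp4* UMIs.

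The optic vesicle cells that held *Tbx5*, a T-box gene of the dorsal retina and a known target of *Bmp4*, held more of 7 members. At least 1 *Tbx5* UMI was counted in 97 of 542 neural retina-like, RPE-like and *Pax2*-high cells for WT (17.9%) and in 133 of 795 for KO (16.7%), or 8.30% and 7.55% after thinning, against 0 of 140 and 4 of 191 forebrain-like cells. Of these, 74 and 108 were neural retina-like cells. *Bmp4* stood at 93.3 CPM in *Tbx5*-positive and 25.6 CPM in *Tbx5*-negative cells for WT, a ratio of 3.64 [3.12, 4.25], and at 99.4 and 17.1 CPM, a ratio of 5.80 [4.98, 6.77], for KO. Of the response genes 4 ran the same way: *Msx2* had ratios of 6.98 [4.40, 11.3] and 10.4 [6.74, 16.4], *Msx1* 3.77 [1.96, 7.29] and 9.20 [5.18, 17.0], *Id3* 2.11 and 2.17, and *Id1* 1.83 and 1.69. The inhibitors were also higher in *Tbx5*-positive cells, *Bambi* with ratios of 3.46 and 3.22 and *Smad6* of 2.11 [1.39, 3.18] and 1.79 [1.19, 2.64]. *Id2* differed little, at 1.22 and 1.15, and *Id4*, with 15 and 25 UMIs, had ratios of 0.528 [0.0578, 2.33] and 0.986 [0.289, 2.71]. *Bmp7* was lower in the *Tbx5*-positive cells, at 0.649 [0.526, 0.795] and 0.740 [0.609, 0.893], so the ligands ran in opposite directions.

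Of members with at least 20 UMIs, 8 of 9 passed 1.5-fold in this split in the library labelled WT, against 12.6% of all genes, and 7 of 10 in the library labelled KO, against 12.8%. *Tbx5* is itself a gene known to respond to BMP, so the split selects cells on the same pathway. Higher levels of other pathway genes are thus partly built in, and these counts are a description. *Tbx5*-positive cells were deeper, with medians of 31292 and 27530 UMIs against 25511 and 21351. When *Tbx5* was called after thinning, no *Smad6* UMI was left in the positive cells of the library labelled KO and the ratio in the other was 1.47. Within neural retina-like cells alone the *Bmp4* ratio was 3.49 and 4.73, the *Msx2* ratio 5.69 and 9.03, the *Id3* ratio 2.09 and 1.87 and the *Bmp7* ratio 0.585 and 0.707. Other pathway genes, chosen here after their values were seen, were *Tbx2* (ratios of 6.25 and 5.52) and *Tbx3* (5.49 and 3.96), T-box genes that respond to BMP, *Smad9* (6.00 and 7.47), *Nog*, the secreted antagonist noggin (3.59 and 7.04), and the type I receptor gene *Bmpr1b*, which was lower (0.425 and 0.514). Of 34 and 35 genes of the pathway list with enough UMIs, 10 and 10 were higher and 1 and 4 lower past 1.5-fold.

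**Figure D4:**
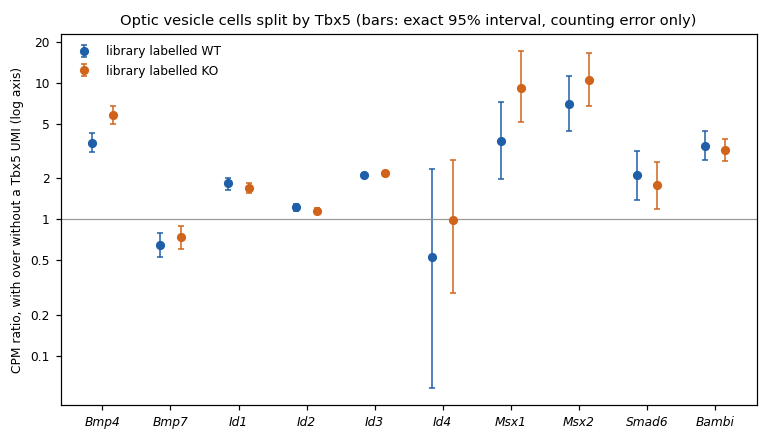
Ratio of CPM in optic vesicle cells with over those without a *Tbx5* UMI for each member (log axis), for the libraries labelled WT (blue) and KO (orange), with exact 95% intervals for counting error and a line at 1. *Bmp4*, *Msx1*, *Msx2*, *Id1*, *Id3*, *Smad6* and *Bambi* lie above 1 and *Bmp7* below 1 in both libraries.

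The comparison of KO with WT asks whether the loss of *Mab21l1*, a gene of the lens placode and retina, went with other levels of BMP ligands and response genes in each class. In ectoderm-like cells *Bmp4* stood at 57.1 CPM in the library labelled KO and 32.7 CPM in the library labelled WT, a ratio of 1.75 [1.07, 2.87], and *Msx2* at 87.3 and 49.5 CPM, a ratio of 1.76 [1.19, 2.62]. *Msx1* was counted 21 times against 2, a ratio of 17.9 [4.36, 157]. The members' count was 3 higher and 0 lower of 9 past 1.5-fold, against 19.5% of all genes, and their median log2 ratio was 0.34 against -0.01 over all genes. A single SE-like cell of the library labelled KO, with 16849 UMIs, held 15 of the 21 *Msx1* UMIs and 7 of the *Bmp4* UMIs. Without it the ratio was 5.24 [0.937, 53.1] for *Msx1*, 1.45 [0.853, 2.44] for *Bmp4* and 1.71 [1.15, 2.56] for *Msx2*. *Msx1* then had 6 against 2 UMIs, below the minimum of 20 UMIs, and *Bmp4* was below 1.5-fold. Of the 3 members counted above, *Msx2* alone stayed past the fold, so that count rested on this cell.

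In LP-like cells *Bmp4* was higher in the library labelled KO at 66.6 against 34.6 CPM, a ratio of 1.93 [1.04, 3.54] from 23 and 25 UMIs, and was counted in 11 of 22 against 7 of 35 cells. This ratio fell below 1.5-fold in 3 of 11 other settings, to a log2 value of 0.28 with a stricter gate, 0.30 with the cells that also passed the retina gate kept and 0.40 with classes from clusters, against 0.95. *Id1* stood at 310 against 199 CPM, a ratio of 1.56 [1.20, 2.01], with a median per 10000 UMIs of a cell of 2.10 against 1.75, while the medians of *Id3* were 10.5 and 10.4. The *Id1* ratio passed 1.5-fold in 7 of 11 other settings and had a log2 value of at least 0.46 in each. The log2 ratio with a pseudocount of 1 per 10000 UMIs added to each level is not among the 11 settings. That log2 ratio was 0.45 for *Id1* and 0.31 for *Bmp4*. Mitosis genes stood at 2238 against 950 CPM in these cells, and their part in these ratios was not tested. *Bambi*, the pseudoreceptor, was lower at 83.9 against 127 CPM, with a ratio of 0.660 [0.419, 1.01] whose interval holds 1. *Id3*, with the most UMIs in these cells, had a ratio of 1.13 [0.999, 1.27], *Id2* of 1.18 [0.921, 1.51], *Bmp7* of 1.28 [0.685, 2.34] and *Msx2* of 1.42 [0.750, 2.64]. The count past 1.5-fold was thus 3 of 7, against 25.6% of all genes.

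SE-like cells gave 4 of 7 members higher past 1.5-fold in the library labelled KO, against 24.7% of all genes in either direction. These were *Bmp4* with a ratio of 1.59 [0.644, 4.05], *Id1* with 1.62 [0.990, 2.67], *Id3* with 1.60 [1.32, 1.94] and *Msx2* with 1.76 [1.03, 3.06]. *Bmp7* stood at 80.7 and 80.4 CPM, a ratio of 1.0 [0.553, 1.81]. Leaving out the cell with the *Msx1* UMIs turned *Bmp4* to 0.780 [0.233, 2.37]. The *Id3* medians per 10000 UMIs of a cell were 6.22 and 6.10, and the highest cell stood at 23.2 against 11.1. With classes taken from unsupervised clusters the log2 ratios of *Id1*, *Id3* and *Msx2* were -0.38, -0.22 and -0.17, so the direction in this class depended on which cells it holds.

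In *Pax2*-high cells all 7 members with enough UMIs had ratios between 0.911 and 1.05, and 0 of 7 passed 1.5-fold, against 8.80% of all genes. The intervals there ran from 0.957 to 1.08 for *Id2* and from 0.922 to 1.04 for *Id3*. Of the *Pax2*-high cells, 62 of 149 and 99 of 231 (WT before KO) lay near a deciding limit. The *Pax2*-high class taken from clusters held 36 and 115 cells, of which 20 and 69 were also in the gated class. Over the other settings the members' median log2 ratio in this class ran from -0.14 to 0.03. RPE-like cells gave 0 of 8 past 1.5-fold, against 12.2%, with *Id3* at 689 against 838 CPM, a ratio of 0.822 [0.771, 0.875], and *Bmp4* at 38.2 against 48.5 CPM, a ratio of 0.788 [0.60, 1.03]. In neural retina-like cells *Bambi* alone of 10 members passed, at 30.9 against 20.2 CPM, a ratio of 1.53 [1.29, 1.82], against 6.40% of all genes. Both ligands were slightly lower there in the library labelled KO, with ratios of 0.855 [0.756, 0.968] for *Bmp4* and 0.863 [0.751, 0.992] for *Bmp7*, while *Id1* had a ratio of 1.23 [1.15, 1.33]. Forebrain-like cells held 27 *Bmp4* UMIs against 4, a ratio of 5.39 [1.88, 21.2] and 1 of 8 members past 1.5-fold, against 9.68%. That direction turned with classes taken from clusters, at a log2 ratio of -0.56.

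In the mesenchyme *Id1* was higher and *Smad6* lower in the library labelled KO. In the *Alx*-high class the ligand *Bmp4* and the response gene *Msx2* were lower. Over all kept cells, mesenchyme included, *Id1* stood at 115 against 87.1 CPM and *Smad6* at 6.08 against 7.66 CPM. *Id1* was thus not higher in the mesenchyme alone. Its ratio was 1.56 [1.20, 2.01] in LP-like, 1.23 [1.15, 1.33] in neural retina-like and 1.41 [1.05, 1.89] in forebrain-like cells. It was 1.62 [0.990, 2.67] in SE-like, 1.09 [0.868, 1.37] in RPE-like and 1.05 [0.926, 1.18] in *Pax2*-high cells, with intervals that hold 1. Neural crest-like cells held 3 against 8 *Id1* UMIs and erythroid-like cells 16 against 4. In endothelium-like cells *Id1* stood at 160 against 171 CPM. *Alx*-high cells held 185 against 103 CPM of *Id1*, a ratio of 1.79 [1.62, 1.97], and thinned to 6000 UMIs 51.3% [46.7, 55.8] against 35.3% [29.8, 41.0] of them held a UMI of it (71.8% and 62.0% unthinned). *Id3* stood at 557 against 416 CPM, a ratio of 1.34 [1.27, 1.41], whereas *Id2* had a ratio of 0.867 [0.819, 0.918]. *Bmp4* was lower at 12.2 against 22.1 CPM, a ratio of 0.552 [0.417, 0.729], *Msx2* at 21.3 against 37.5 CPM, a ratio of 0.566 [0.458, 0.699], and *Smad6* at 8.26 against 12.5 CPM, a ratio of 0.661 [0.462, 0.944]. The thinned shares of cells overlapped for *Bmp4*, at 6.93% [4.82, 9.60] against 10.8% [7.54, 15.0]. They also did for *Msx2*, at 11.8% [9.01, 15.0] against 14.2% [10.5, 18.8]. The most UMIs in a single cell were 5 against 14 for *Bmp4* and 6 against 13 for *Msx2*. *Msx1* did not follow *Msx2*, with a ratio of 1.05 [0.944, 1.16]. The members past 1.5-fold were 1 higher and 3 lower of 9, against 7.83% of all genes. In *Foxc*-high cells *Id1* stood at 92.0 against 55.0 CPM, a ratio of 1.67 [1.42, 1.98], and *Smad6* at 6.60 against 10.2 CPM, a ratio of 0.647 [0.392, 1.06], which made 2 of 9 members, against 9.38% of all genes. *Bmp4* had a ratio of 1.21 [0.915, 1.60] there. The *Id1* ratio passed 1.5-fold in both mesenchyme classes in 11 of 11 other settings, as did *Bmp4* and *Msx2* in the *Alx*-high class. *Smad6* passed in 9 of 11 in *Alx*-high and 8 of 11 in *Foxc*-high cells, where its log2 ratio went from -0.63 to -0.10 after thinning. The setting on the retina gate changes no mesenchyme-like cell. Those on shared barcodes, mitochondrial limit, UMI total and median ratio each left all 88 member ratios within their counting intervals. The count of settings is thus a weak measure. Of the mesenchyme-like cells, 160 of 1267 lay near the limit between both classes.

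Endothelium-like cells held 34 against 10 *Bmp4* UMIs, a ratio of 2.70 [1.30, 6.13], and 9 against 22 *Smad6* UMIs, a ratio of 0.325 [0.132, 0.734]. These were 2 of 7 members past 1.5-fold, against 12.8% of all genes, while *Bambi*, *Id1*, *Id2* and *Id3* had ratios of 0.932 to 1.05. In neural crest-like cells 1 of 4 members passed, *Bmp7* with a ratio of 0.622 [0.232, 1.52], against 23.1%. Erythroid-like cells, which should hold little of these genes, gave 3 of 3 members higher in the library labelled KO, *Id3* with 70 against 9 UMIs, *Id2* with 27 against 4 and *Id1* with 16 against 4, against 15.0% of all genes. A single cell held 30 of the 70 *Id3* UMIs and a single cell 11 of the 27 *Id2* UMIs. Over the 11 classes that do not overlap, 21 of 79 pairs of member and class passed 1.5-fold, against 12.2% of 94287 pairs over all genes, which were not matched to the members' UMI counts. The 21 include the 3 erythroid-like pairs.

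**Figure D5:**
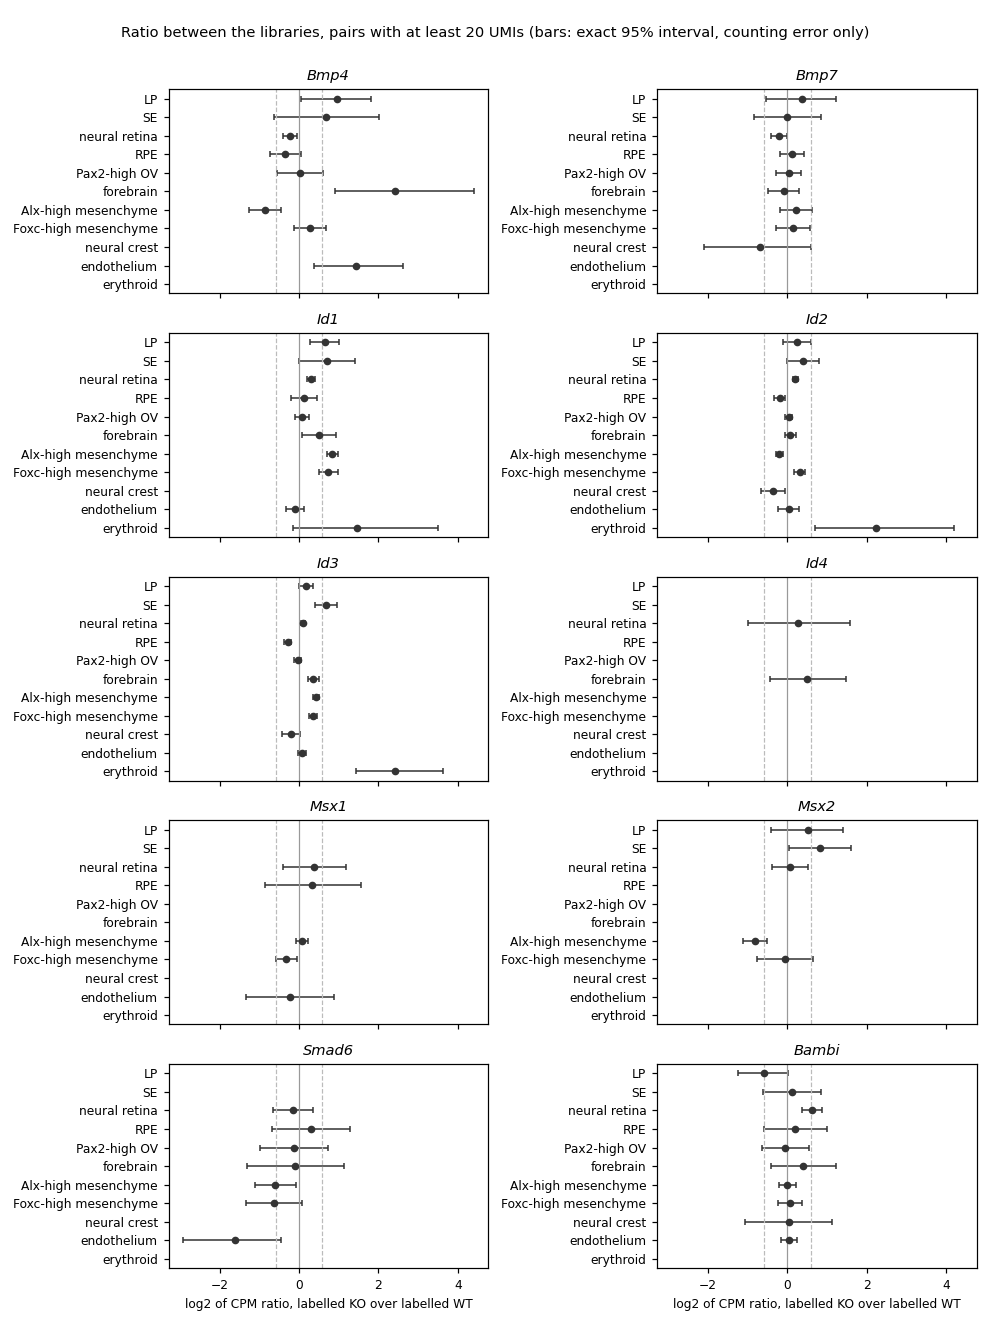
Log2 ratio of CPM in the library labelled KO over that labelled WT for each pair of member and class with at least 20 UMIs, with exact 95% intervals for counting error and dashed lines at 1.5-fold. *Id1* lies above 0 in both mesenchyme classes, *Bmp4* and *Msx2* lie below 0 in *Alx*-high cells, and the *Pax2*-high values lie close to 0.

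The rest of the pathway was read from a list of 53 further genes. Among secreted antagonists, *Sostdc1* was the highest in LP-like cells (268 and 298 CPM) and SE-like cells (562 and 685 CPM). *Fst*, which encodes follistatin, led in neural retina-like (82.3 and 54.9 CPM), RPE-like (116 and 90.4 CPM) and *Pax2*-high cells (63.2 and 49.5 CPM), and was lower in the library labelled KO in all 3. *Fstl1* led in both mesenchyme classes, at 152 and 179 CPM in *Alx*-high cells. Among receptors the type I gene *Bmpr1a* led in most classes, at 43.4 and 42.8 CPM in neural retina-like cells. The type II gene *Acvr2b* was close to it in optic vesicle and LP-like cells, where the lead is not set. *Bmpr1a* held 432 and 533 UMIs in neural retina-like cells against 405 and 506 of *Acvr2b* (WT before KO). In RPE-like cells these were 96 and 99 against 104 and 90 UMIs, and in *Pax2*-high cells 156 and 233 against 150 and 241. In LP-like cells they were 28 and 16 against 32 and 13 UMIs. The endothelial co-receptor gene *Eng* led in endothelium-like cells at 245 and 212 CPM. Of other ligands, *Bmp2* led in LP-like cells with 3 UMIs in each library, and *Bmp5* in *Alx*-high cells at 9.61 and 6.95 CPM. These leads compare 3′ UMI counts between genes, and whether the genes were captured equally well was not tested.

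Between genotypes, 59 of 258 pairs of listed gene and class passed 1.5-fold, against the same 12.2% of all pairs, also not matched for UMI counts. LP-like cells had 5 higher and 4 lower of 16 (25.6% of all genes). *Smad7*, the other inhibitory SMAD, led with a ratio of 2.28 [1.23, 4.27]. *Neo1* (0.441 [0.109, 1.33]) and *Skil* (0.455 [0.135, 1.22]) followed, with intervals that hold 1. SE-like cells had 1 higher and 3 lower of 13 (24.7% of all genes). There *Smad5* led with 2 against 26 UMIs, a ratio of 0.0941 [0.0108, 0.376]. *Acvr2b* (0.50 [0.203, 1.13]) and *Gata3* (1.90 [0.767, 4.98]) followed, and both intervals hold 1. In neural retina-like cells 0 were higher and 4 lower of 39 (6.40% of all genes). *Gdf6* stood at 0.449 [0.175, 1.08], *Rgmb* at 0.598 [0.323, 1.09] and *Gdf10* at 0.653 [0.239, 1.73], with intervals that hold 1. *Fst* was the fourth at 0.666 [0.601, 0.739]. The ratios given below without an interval are not set against counting error here. *Alx*-high cells had 4 higher and 3 lower of 36 (7.83% of all genes), in which the T-box genes *Tbx2*, with a ratio of 2.98 [2.25, 4.0], and *Tbx3*, with 2.87 [2.12, 3.94], were higher and the antagonist gene *Grem1* was lower at 0.420. *Foxc*-high cells had 2 higher and 7 lower of 34 (9.38% of all genes), among them *Fst* (0.285), *Sostdc1* (0.428) and *Tbx2* (2.21), and endothelium-like cells had 1 higher and 8 lower of 25 (12.8% of all genes), among them *Bmp2* (0.353), *Gata3* (0.529) and *Acvr1* (0.558). The remaining classes had 2 higher and 1 lower of 26 (RPE-like, 12.2% of all genes, led by *Bmp1*, *Tbx3* and *Sostdc1*), 2 and 3 of 31 (*Pax2*-high, 8.80%, led by *Tsku*, *Acvr1* and *Smurf1*), 3 and 0 of 26 (forebrain-like, 9.68%, *Chrdl1*, *Atoh8* and *Bmp1*) and 4 and 2 of 12 (neural crest-like, 23.1%, led by *Bmpr2*, *Smad7* and *Tbx2*).

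Over the 22 levels of 11 classes in 2 libraries, the genes with a pattern most like each member, by Pearson r of log2(CPM + 10) among 9223 genes, were *Tmem108* (0.872), *Hsd17b10* and *Eno3* for *Bmp4*, *Rnf182* (0.951), *Zfand1* and *Epb41l5* for *Bmp7*, *Etl4* (0.901), *Il17rd* and *Ttc4* for *Id1*, *Npc2* (0.958), *Tra2a* and *Dcakd* for *Id2*, and *Tuba1a* (0.95), *Cxxc5* and *Ifitm2* for *Id3*. For *Id4* they included *Dmrta2* (0.877) and *Frat2*, and for *Msx1* they were *S1pr2* (0.917), *Prrx1* and *Crnde*, of which *Prrx1* is a mesenchyme gene that served in the gates. *Msx2* was most like *Ccdc80* (0.911), *Cacnb3* and *Npnt*, *Smad6* like *S100a11* (0.881), *Invs* and *Scmh1*, and *Bambi* like *Hapln1* (0.942), *Tspan9* and *Mmp14*. The points share libraries and depth, so these are descriptions.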

How the data were processed

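Per the labels, the authors dissociated the optic areas of 1 embryo per genotype, made 10x Chromium 3′ v3 libraries and aligned them to mm10 (GRCm38) with Cell Ranger. The deposited counts are whole-number UMI counts per gene and cell, not scaled, and by the study's methods the libraries were then aggregated (Cell Ranger aggr), a step that may discard reads of the deeper library.

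From these, a cell was kept if it had between 1500 and 8000 genes and its mitochondrial share did not pass 5%. The methods write that limit as a smaller percent, which was read as a fraction. Classes were set by mean log levels of marker lists, with limits chosen after the data were seen, and 939 of 3328 classed cells lay within 0.1 of a deciding limit. 10 ectoderm-like cells that also passed the retina gate were left out. Doublets were scored with Scrublet and removed only as an alternative. UMIs were summed per class and library and divided by all UMIs of the class (CPM). Sums carry exact Poisson intervals, ratios exact conditional binomial intervals and shares Clopper-Pearson intervals, all at 95%. A ratio was counted past the fold at 1.5 with at least 20 UMIs over both libraries, and no test was made with 1 library per genotype. A gene low in 1 library could reach this minimum only through the other, so such a pair entered only with a large ratio. All 10 members are named. Pathway genes are named for the 3 largest ratios per class and the highest level of each role. A result on 1 gene is not reported here. The members and lists were chosen with earlier results of these data known. Alternatives changed the filters, gate limits, classes, doublets, scaling, depth, fold and UMI minimum. Counts of other settings given for single ratios leave out the log2 ratio with a pseudocount of 1 per 10000 UMIs. The interval computation was tested on simulated Poisson counts. These lack the clumping of UMIs in single cells, so the test checks the computation and not how well the intervals hold for these data. Python 3.11.15, numpy 2.4.6, scipy 1.17.1, pandas 2.3.3, scanpy 1.11.5 and matplotlib 3.10.9 were used.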

Additional observations from a re-analysis of the deposited data

Results flagged for a closer look

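*Bmp4* differed between genotypes in opposite directions among classes. Its ratio of CPM in the library labelled KO over that labelled WT was 1.93 in LP-like, 5.39 in forebrain-like and 2.70 in endothelium-like cells, and 0.552 in *Alx*-high mesenchyme-like cells. *Msx2* likewise had a ratio of 1.76 in SE-like and 0.566 in *Alx*-high cells. These all passed 1.5-fold, and their counting intervals lay on opposite sides of 1. *Bmp4* in neural retina-like cells, at 0.855 [0.756, 0.968], also lay below 1 but did not pass 1.5-fold. With 1 library per genotype, the difference between classes was not tested. Leaving out the cell with the most UMIs of the gene in each library, or taking classes from clusters, kept the direction of *Bmp4* and *Msx2* in *Alx*-high cells and of *Bmp4* in endothelium-like cells, but with clusters *Bmp4* in forebrain-like cells and *Msx2* in SE-like cells turned. *Bmp4* in LP-like cells kept its direction in 11 of 11 settings but passed 1.5-fold in 8, with a lowest log2 ratio of 0.28 against 0.95.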

How the results depend on the processing

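No paired analysis was possible because each genotype has 1 library and no test was made. Of 1053 recomputed log2 ratios of KO over WT, 981 were counted as within the counting interval of the value in the report. Another 67 were counted as moved beyond it and 5 as turned. The settings on shared barcodes, retina gate, mitochondrial limit, UMI total and median ratio each left all 88 ratios within. The pooled count is thus a weak measure of stability. Classes from clusters left 63 within, moved 20 and turned 4, and thinning left 72 within and moved 15. Of 163 ratios of LP over SE, 152 were within, 9 moved and 2 turned. A turn was counted, here and below, only where the ratio in the report had passed 1.5-fold. Any other change of direction is counted under within or moved. The members' median log2 ratio in forebrain-like cells, 0.37 in the report, ran from -0.21 to 0.44 over the other settings. Of 56 *Tbx5* ratios 19 moved and 0 turned, and of 2200 levels 227 moved. The 56 leave out *Smad6* in the library labelled KO after thinning, where 0 against 30 UMIs gave no log2 ratio. With classes from unsupervised clusters, SE-like *Id1* turned from 0.69 to -0.38, *Id3* from 0.68 to -0.22 and *Msx2* from 0.82 to -0.17, forebrain-like *Bmp4* from 2.43 to -0.56, and *Msx1* of LP over SE in the library labelled KO from -2.37 to 0.73, or 2.44 with the ectoderm split on clusters. Without the cell with the most UMIs of the gene in each library, a choice made after seeing the data, SE-like *Bmp4* went from 0.67 to -0.11. The members' median log2 ratio moved with clusters from 0.67 to -0.13 in SE-like and from 0.14 to 0.46 in *Foxc*-high cells. With thinning this median moved from 0.03 to 0.32 in endothelium-like cells. With a pseudocount of 1 per 10000 UMIs added to each level, it moved from 2.23 to 0.15 in erythroid-like cells. At a minimum of 50 UMIs, 13 in place of 21 pairs of member and class passed the fold, and 23 in place of 59 of the pathway list. At a fold of 2, with the minimum of 20 UMIs kept, 22 of the pathway list passed. The median share of cells with a UMI was 11% thinned and 24.1% on all UMIs. The ectoderm classes hold 18 to 35 cells per library, and members with under 20 UMIs in a class could not be compared there. The cause of these shifts was not tested.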
